A study of Rattus norvegicus with 20 samples.

Results

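The claudins are the membrane proteins that form the strands of tight junctions, and 10 of them were examined here: Cldn1, Cldn2, Cldn3, Cldn4, Cldn5, Cldn7, Cldn8, Cldn10, Cldn19 and Cldn23. The genes were taken by symbol from a deposited expression table of 30560 genes, and 9 of the 10 symbols had a row. No row was named Cldn5. A row named Cdc45 (ENSRNOG00000050071, chromosome 11, 82211475 to 82214992, minus strand) carries the annotation claudin-5. Its values are given below as those of the row annotated claudin-5, and it is not counted among the 9 members. Another 17 rows of the table bear a claudin symbol.

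Expression was measured by poly-A RNA sequencing in 10 male hypertensive rats, labelled WT, whose strain the labels do not name. All of them carried a blood pressure telemeter, implanted at 8 weeks of age, and all ate a diet with 4% NaCl for 3 weeks, so no normal-salt group is available for comparison. Over those weeks 5 rats received Maresin 1 (MaR1), a lipid mediator of macrophages derived from an omega-3 fatty acid, and 5 rats received vehicle, both by a subcutaneous minipump. The MaR1 dose was at most 1.3 µg/kg/day. Each rat gave 1 kidney library, labelled cortex, and 1 library of the left ventricle, so the 20 libraries form 4 groups of 5 separate animals: MaR1 kidney, vehicle kidney, MaR1 heart and vehicle heart. MaR1 rats are numbered RB035 to RB039 and vehicle rats RB030 to RB034. Values are in FPKM, fragments scaled by gene length and by library size, which allows levels to be compared between genes.

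In an epithelium, the mix of claudins sets which ions can pass between cells. Pore-forming claudins let selected cations, anions or water through, whereas sealing claudins close the path. Along the nephron each segment has its own combination: Cldn2 and Cldn10 in the proximal tubule, Cldn10, Cldn16 and Cldn19 in the thick ascending limb, and Cldn3, Cldn4, Cldn7 and Cldn8 in the distal nephron and collecting duct. Cldn5 is the claudin of blood vessel endothelium. Cldn23 is less studied and is known mainly from the surface epithelium of the gut in mouse and human.

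Between 19383232 and 30342034 fragments per library were assigned to genes. The organ labels fitted the markers: in the kidneys, the sum of 6 proximal tubule genes was 3095 to 4695 FPKM with MaR1 and 3001 to 5173 FPKM with vehicle, while that of 4 cardiomyocyte genes was at most 1.13 FPKM. Besides these, markers of the inner medulla and thin limbs (11 genes, among them Slc14a2 and Akr1b1) and of urothelium, the lining of the renal pelvis (8 genes found, among them the uroplakins), differed between libraries and are set beside the claudin values below. In bulk tissue, fewer cells of a type and less RNA per cell cannot be told apart.

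Cldn2 and Cldn10, the pore-forming claudins of the proximal tubule, were the most abundant members in the kidney. Cldn2, a cation and water pore, averaged 91.6 ± 11.2 FPKM over the 10 kidneys (SD, n = 10). Cldn10, whose isoforms pass cations in the thick limb and anions in the proximal tubule and are counted together here, averaged 67.4 ± 14.3 FPKM. These genes made up 31.9% and 23.1% of the summed FPKM of all claudin rows.

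A middle group held the claudins of the thick limb and distal nephron. Cldn8, an anion-passing claudin of the collecting duct, averaged 25.6 ± 3.39 FPKM. Cldn4, its partner there, averaged 22.1 ± 7.60 FPKM, and Cldn19, which acts with Cldn16 in magnesium and calcium uptake, averaged 19.4 ± 8.92 FPKM. Cldn7, found along the basolateral membrane as well as the junction, averaged 15.2 ± 2.84 FPKM. The lowest members were Cldn1, a sealing claudin of epidermis and of the parietal cells of Bowman's capsule, at 4.36 ± 1.24 FPKM, the sealing claudin Cldn3 at 2.78 ± 1.52 FPKM and Cldn23 at 2.00 ± 1.29 FPKM. The row annotated claudin-5 stood between Cldn7 and Cldn1 at 4.48 ± 0.633 FPKM.

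Neighbours in this order were not all separated. Cldn2 exceeded Cldn10 in 9 of 10 kidneys, Cldn10 exceeded Cldn8 in 10 of 10, and Cldn8 exceeded Cldn4 in 9 of 10. Cldn4 exceeded Cldn19 in only 5 of 10 kidneys, and Cldn19 exceeded Cldn7 in 7 of 10, so the order of these 3 genes is within their spread. The same holds for the row annotated claudin-5 and Cldn1, with the first higher in 6 of 10 kidneys, and for Cldn1 over Cldn3, in 7 of 10. Cldn3 exceeded Cldn23 in 9 of 10 kidneys, and the exception was RB039, a MaR1 kidney with 0.783 FPKM of Cldn3 and 2.67 FPKM of Cldn23.

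Of the 17 other claudin rows, 4 reached a mean of 1 FPKM in the kidney. Cldn16, the partner of Cldn19 in the thick limb, averaged 19.9 ± 7.49 FPKM, and Cldn12, a claudin of broad expression linked to calcium uptake, averaged 7.91 ± 0.860 FPKM. Cldn15, a cation pore of the intestine, averaged 2.91 ± 1.08 FPKM. The fourth row is named Cldn6 but described in the file as claudin 9, and its kidney values ran from 0.943 to 1.44 FPKM. The remaining 13 rows averaged below 1 FPKM, and 5 of these were at 0 in every kidney.

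The heart had a different and much smaller claudin set. Only 1 of the 9 members, Cldn19, reached a mean of 1 FPKM there. The row annotated claudin-5 averaged 16.5 ± 1.87 FPKM over the 10 hearts and made up 59.1% of the summed claudin FPKM. Of the other claudin rows, Cldn12 (3.12 ± 0.342 FPKM), Cldn15 (2.83 ± 1.04 FPKM) and Cldn11 (2.29 ± 3.52 FPKM), the claudin of myelin, passed that level. The Cldn11 mean rested on single hearts: its median was 0.724 FPKM, and the mean was 1.38 FPKM without RB035. All claudin rows together summed to 27.4 ± 5.81 FPKM in MaR1 hearts and 29.6 ± 4.58 FPKM in vehicle hearts, against 304 ± 22.4 FPKM in MaR1 kidneys and 275 ± 16.6 FPKM in vehicle kidneys (SD, n = 5 each).

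**Figure D1:**
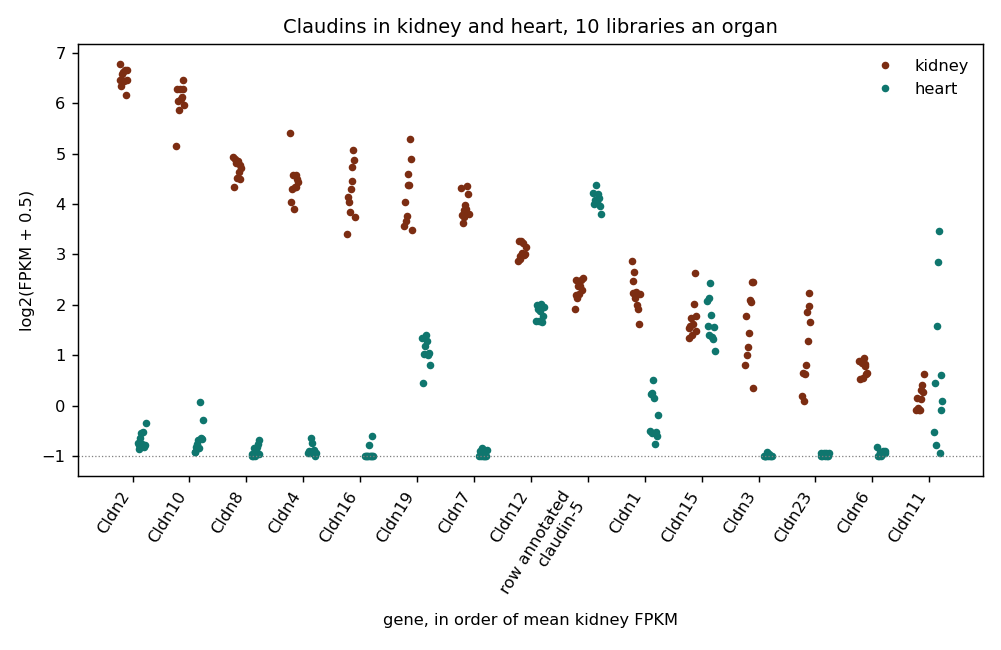
Levels of 15 claudin rows in 10 kidney and 10 heart libraries, as log2(FPKM + 0.5) on the vertical axis, with genes in order of their mean kidney FPKM and 1 point per library. The dotted line is the value of a gene at 0 FPKM; the row annotated claudin-5 is higher in every heart than in any kidney, and Cldn15 overlaps between the organs.

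Organs were compared in a single fit of all 20 libraries with limma, a linear model that shares information on variance across genes. It used log2(FPKM + 0.5), genes whose mean over the fitted libraries was 1 FPKM or more, and a Benjamini-Hochberg adjusted p of 0.05 as the threshold. Each rat gave both organs, but the rat was not a block in this fit. With the rat as block, 11041 genes were called between organs, against 10983 without it. All 9 members were called higher in kidney, where 43.6% of the 12984 genes tested were called higher and 41.0% lower. Since 8 of the 9 members averaged below 1 FPKM in the heart, they entered the test only through the kidney and had to differ, and their count is a description. The added 0.5 understates the differences of genes near 0.

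Within that scale, Cldn2 had the largest difference among the members, 7.19 ± 0.08 on the log2 scale (SE). Cldn10 followed at 6.69 ± 0.13, Cldn8 at 5.58 ± 0.07, Cldn4 at 5.32 ± 0.13 and Cldn7 at 4.90 ± 0.08. Cldn19, the only member above 1 FPKM in the heart, differed by 3.14 ± 0.18 (limma adjusted p = 1.11e-12). Cldn3 (2.55 ± 0.20), Cldn1 (2.43 ± 0.15) and Cldn23 (2.11 ± 0.11) had smaller differences, with kidney levels nearer to the 0.5 that was added. The row annotated claudin-5 was lower in kidney by a log2 difference of -1.78 ± 0.07 (limma adjusted p = 6.38e-15), and all 8 endothelial markers tested were lower in kidney too. Cldn15 did not separate the organs (0.04 ± 0.15, limma adjusted p = 0.790).

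In the kidney, no claudin passed the threshold between MaR1 and vehicle, but Cldn23 had the smallest limma p-value of all 12446 genes tested. Its vehicle mean, 0.919 FPKM, was below the filter of 1 FPKM, so Cldn23 entered the test only through the MaR1 group. This rank is therefore a description. Limma called 0 genes (0.0%) at an adjusted p of 0.05, and 840 (6.75%) had an unadjusted p below 0.05. Cldn23 was the only member whose groups did not overlap. Groups without overlap were found for 0.723% of all genes with MaR1 higher and for 0.506% with MaR1 lower.

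Cldn23 (ENSRNOG00000011424, chromosome 16, 56413381 to 56415523, plus strand) was at 3.14, 1.95, 3.45, 4.20 and 2.67 FPKM in the MaR1 kidneys RB035 to RB039. In the vehicle kidneys RB030 to RB034 it was at 0.641, 1.08, 0.564, 1.05 and 1.26 FPKM. The lowest MaR1 kidney, RB036, lay above the highest vehicle kidney, RB034. These values stood for 110 to 231 fragments in each MaR1 kidney and 32 to 72 in each vehicle kidney, so the distance between groups is larger than counting error.

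The group means of Cldn23 were 3.08 ± 0.842 FPKM with MaR1 and 0.919 ± 0.301 FPKM with vehicle (SD, n = 5 each). On the log2(FPKM + 0.5) scale the difference was 1.33 ± 0.19 (SE; 95% interval 0.90 to 1.76; limma adjusted p = 0.298). When kidney and heart entered 1 model, the same difference passed, with an adjusted p of 0.00108 without and 0.00114 with the animal as replicate block (limma). That model takes part of its spread from the hearts, where no library had more than 1 Cldn23 fragment. Cldn23 passed the filter of that model only through the MaR1 kidneys as well. Fragments recovered from the FPKM and tested with limma voom, which adds no 0.5 FPKM, gave a log2 difference of 1.78 for Cldn23 (adjusted p = 0.411) and 0 genes called. Each kidney left out in turn gave differences of 1.22 to 1.46, none of which passed (adjusted p from 0.0849 to 0.921).

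**Figure D2:**
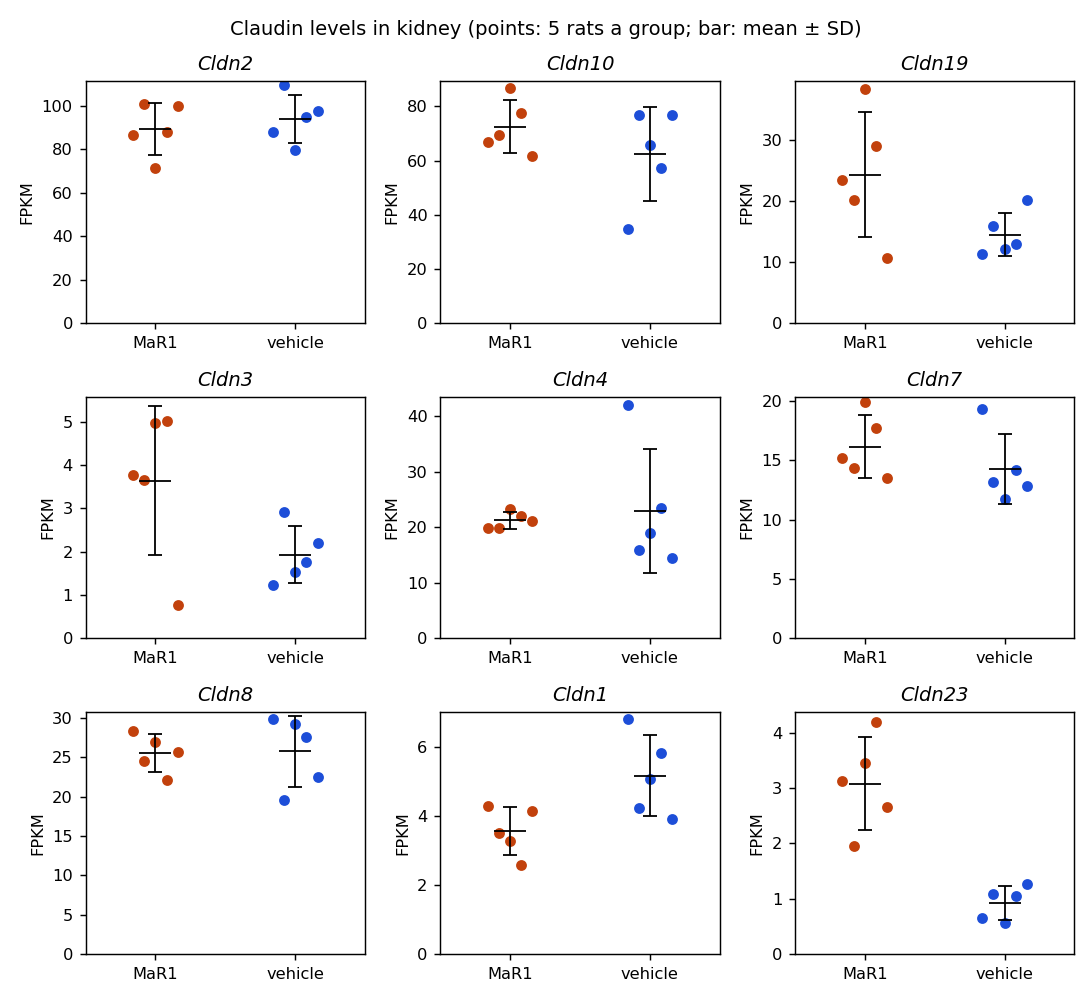
FPKM of the 9 claudins in kidney libraries, MaR1 left and vehicle right, with 1 point per rat and the mean ± SD of 5 rats as bars; each panel has its own axis, which starts at 0. Cldn23 is the panel without overlap between groups; the high vehicle point in Cldn4 and the low MaR1 point in Cldn3 are single rats.

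The other 8 members overlapped between groups. Over the 9 members, 6 differences were positive and 3 negative, with a median of 0.18. Over all genes tested, 6227 were positive and 6219 negative, with a median of 0.0002. An unadjusted limma p below 0.05 was reached by Cldn23, Cldn19 and Cldn1 only, 3 of 9, and by 6.75% of all genes.

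Cldn19 (ENSRNOG00000007922, chromosome 5, 132863267 to 132868227, plus strand) was at 23.5, 20.2, 38.3, 29.1 and 10.7 FPKM in the MaR1 kidneys RB035 to RB039, against 11.4, 15.8, 12.1, 13.0 and 20.2 FPKM in the vehicle kidneys RB030 to RB034. Although every MaR1 kidney but RB039 lay above all vehicle kidneys, RB036 only narrowly, RB039 lay below all of them. The difference was 0.64 ± 0.29 (limma adjusted p = 0.737). Its partner Cldn16 had 26.2, 21.5, 33.1, 29.0 and 12.8 FPKM in MaR1 kidneys, against 10.1, 17.2, 16.02, 13.8 and 19.1 FPKM in vehicle kidneys, and a difference of 0.63 ± 0.24 (limma adjusted p = 0.715). RB039 was the lowest and RB037 the highest MaR1 kidney for both genes.

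Cldn3 (ENSRNOG00000046007, chromosome 12, 21708398 to 21711001, minus strand) was at 3.77, 3.66, 4.96, 5.01 and 0.783 FPKM in MaR1 kidneys, against 1.24, 2.91, 1.52, 1.76 and 2.21 FPKM in vehicle kidneys. All MaR1 kidneys but RB039 were above the vehicle range, and RB039 was the lowest of the 10. The difference was 0.64 ± 0.37 (limma adjusted p = 0.786).

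Cldn10 (ENSRNOG00000010085, chromosome 15, 95862760 to 95954526, plus strand) was at 67.0, 69.5, 86.8, 77.5 and 61.7 FPKM in MaR1 kidneys, against 34.9, 76.6, 65.7, 57.4 and 76.8 FPKM in vehicle kidneys. Only the vehicle kidney RB030 stood apart, at the low end. The difference was 0.26 ± 0.20 (limma adjusted p = 0.833).

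Cldn1 (ENSRNOG00000001926, chromosome 11, 74421569 to 74436724, plus strand) was the member with the most negative difference. It was at 4.29, 3.50, 3.28, 2.59 and 4.15 FPKM in MaR1 kidneys, against 6.79, 4.22, 5.06, 5.81 and 3.92 FPKM in vehicle kidneys. The groups overlapped between 3.92 and 4.29 FPKM. The difference was -0.47 ± 0.16 (limma adjusted p = 0.661). The podocyte marker score was also lower with MaR1, by -0.43 (exact permutation p = 0.0159, adjusted p = 0.111 over 28 comparisons of marker lists). Within groups, Cldn1 and that score had r = 0.467 (exact permutation p = 0.196, adjusted p = 0.387 over the 63 relations described below) and rho = 0.624 (exact permutation p = 0.0768), and r was 0.498 without RB032 and RB039.

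Cldn4 (ENSRNOG00000001476, chromosome 12, 21751331 to 21753436, plus strand) was at 19.8, 19.8, 23.4, 22.1 and 21.2 FPKM in MaR1 kidneys, against 42.1, 15.9, 19.0, 23.4 and 14.4 FPKM in vehicle kidneys. RB030, the vehicle kidney with the lowest Cldn10, had the highest Cldn4 of all. The difference was -0.00 ± 0.24 on all 10 kidneys and 0.24 without RB030 (limma adjusted p = 0.998 and 0.694).

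Cldn7, Cldn8 and Cldn2 lay close together between groups. Cldn7 (ENSRNOG00000017325) ran from 13.5 to 19.96 FPKM in MaR1 kidneys and from 11.8 to 19.3 FPKM in vehicle kidneys, a difference of 0.18 ± 0.14 with a 95% interval of -0.13 to 0.49. Cldn8 (ENSRNOG00000001571) ran from 22.1 to 28.3 FPKM in MaR1 kidneys and from 19.6 to 29.9 FPKM in vehicle kidneys, a difference of 0.00 ± 0.12 with an interval of -0.27 to 0.27. Cldn2 (ENSRNOG00000054495) ran from 71.2 to 101 FPKM in MaR1 kidneys and from 79.8 to 109 FPKM in vehicle kidneys, a difference of -0.08 ± 0.11 with an interval of -0.33 to 0.17. These intervals leave room for small changes in either direction. The row annotated claudin-5 differed by 0.16 ± 0.11, Cldn12 by 0.03 ± 0.09 and Cldn15 by 0.38 ± 0.19 (limma adjusted p of 0.753 to 0.987).

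Because Cldn23 stood out, its values were set against the medulla and urothelium content of the same kidneys. A marker score is the mean of log2(FPKM + 0.5) over a list. Both scores were higher in MaR1 kidneys. The inner medulla and thin limb score was 1.87, 2.01, 2.72, 2.48 and 1.55 in the MaR1 kidneys RB035 to RB039, against 1.15, 1.19, 0.956, 1.14 and 1.31 in the vehicle kidneys RB030 to RB034. Its groups did not overlap, with a difference of 0.98 (exact permutation p = 0.00794, the smallest that 5 against 5 can give; adjusted p = 0.0741). Of its 11 genes, 9 were tested singly, all 9 were higher with MaR1, and 0 were called. Over all genes tested, 6227 of 12446 were higher. The list was chosen with earlier results of these data known, so these values are a description and not separate evidence. The markers summed to 69.1 to 251 FPKM in MaR1 kidneys and 51.0 to 127 FPKM in vehicle kidneys.

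Urothelium was uneven among the MaR1 kidneys. The 8 markers summed to 0.858, 16.9, 2.35, 33.6 and 90.1 FPKM in RB035 to RB039, against 0.938, 0.692, 0.522, 0.401 and 4.69 FPKM in RB030 to RB034. The MaR1 kidneys RB036, RB038 and RB039 were high, while RB035 and RB037 lay within the vehicle range. Krt13 was at 0 in all MaR1 kidneys, and Upk1a ran from 0.252 to 23.8 FPKM in MaR1 kidneys and from 0.123 to 1.47 FPKM in vehicle kidneys. The score differed by 1.40 (exact permutation p = 0.0635, adjusted p = 0.222).

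No relation of Cldn23 with urothelium was detected. RB039, with the most urothelial transcript, had 2.67 FPKM of Cldn23, and RB035, with the least among MaR1 kidneys, had 3.14 FPKM. In a limma fit with the treatment kept as a term, the slope of Cldn23 was -0.01 ± 0.11 per unit of urothelium score (95% interval -0.26 to 0.24; limma adjusted p = 0.983). No member was called in that fit, where 0.0884% of genes were. After removing group means, Pearson's r was -0.029 (exact permutation p = 0.951, adjusted p = 0.951 over 18 relations) and Spearman's rho 0.115 (p = 0.797). Without RB035 and RB039, the kidneys farthest from the median score, r was 0.169.

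The MaR1 difference of Cldn23 was as large with the urothelium score in the fit, at 1.34 ± 0.25 (95% interval 0.77 to 1.91; limma adjusted p = 0.385). Without RB034, RB036, RB038 and RB039, the 4 kidneys of high Upk1a, it was 1.53 ± 0.21 (limma adjusted p = 0.192).

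Against the inner medulla score, the relation of Cldn23 was positive but did not pass. The slope was 0.55 ± 0.28 per unit of score (95% interval -0.08 to 1.17; limma adjusted p = 0.379). Within groups, Pearson's r was 0.558 (exact permutation p = 0.133, adjusted p = 0.360 over 18 relations), Spearman's rho was 0.697 (p = 0.0385, adjusted p = 0.162), and r was 0.689 without RB037 and RB039. Among vehicle kidneys, RB034 had the highest score and the highest Cldn23, and RB032 the lowest of both. Among MaR1 kidneys, RB036 had the middle score and the lowest Cldn23.

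With the inner medulla score in the fit, the MaR1 difference of Cldn23 was 0.80 ± 0.32 (95% interval 0.08 to 1.51; limma adjusted p = 0.846). Since the scores of the groups do not overlap, the effects of treatment and of medulla content on Cldn23 cannot be fully told apart in these 10 kidneys. The same holds for 2 other scores without overlap between groups, which were not fitted as covariates. The adipocyte score was higher with MaR1 by 1.45 and the collecting duct principal cell score by 0.18 (exact permutation p = 0.00794 and adjusted p = 0.0741 for each). The 5 adipocyte markers summed to 22.8 to 322 FPKM in MaR1 kidneys and 8.65 to 20.9 FPKM in vehicle kidneys, and the 9 principal cell markers to 344 to 459 FPKM in MaR1 kidneys and 288 to 361 FPKM in vehicle kidneys. Within groups, Cldn23 had r = -0.387 with the adipocyte score (rho -0.321; exact permutation p = 0.422, adjusted p = 0.578; r = -0.573 without RB035 and RB039) and r = 0.123 with the principal cell score (rho 0.0667; exact permutation p = 0.759, adjusted p = 0.839; r = -0.316 without RB031 and RB037). With the score of the thick ascending limb in its place, a choice made after the values were seen, the difference was 1.06 ± 0.22 (limma adjusted p = 0.566).

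**Figure D3:**
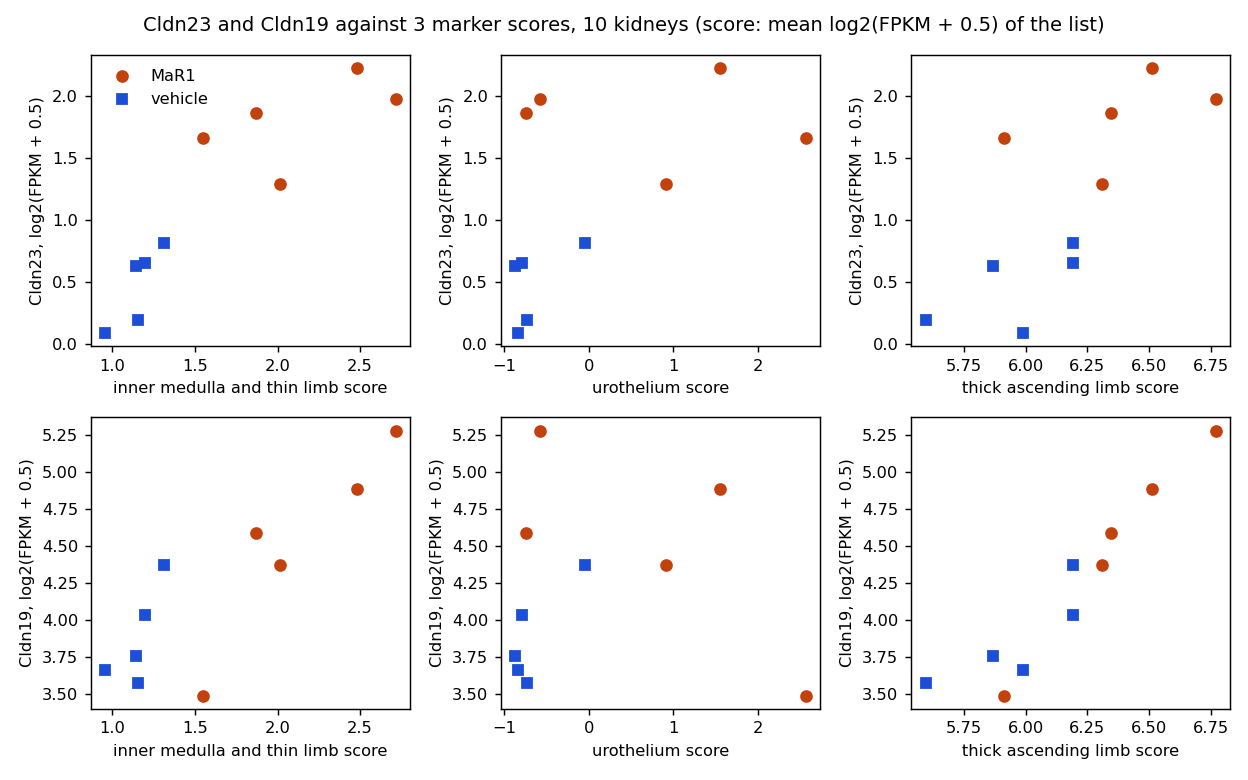
Cldn23 (top) and Cldn19 (bottom) as log2(FPKM + 0.5) against the inner medulla, urothelium and thick ascending limb scores of the same 10 kidneys, with MaR1 kidneys as circles and vehicle kidneys as squares. Cldn23 is higher in every MaR1 kidney than in any vehicle kidney. The MaR1 kidneys RB036, RB038 and RB039 have urothelium scores that no vehicle kidney reaches. The MaR1 kidney with the highest urothelium score has the lowest Cldn19 of all.

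Of the members, Cldn19 was called for the inner medulla score. Its slope was 1.37 ± 0.23 per unit of score (limma adjusted p = 0.0281), and it was the only one of 9 members called, where 1.94% of genes were. This call was lost when RB033, RB036, RB037, RB038 or RB039 was left out, with adjusted p of up to 0.558 without RB039. It was also lost at a pseudocount of 0.1 (limma adjusted p = 0.134) and without the filter on low values (limma adjusted p = 0.0623). Within groups, Pearson's r was 0.896 (exact permutation p = 0.00319, adjusted p = 0.0575 over 18 relations), rho was 0.794 (p = 0.0141, adjusted p = 0.162), and r was 0.661 without RB037 and RB039. Cldn3 had a slope of 1.52 ± 0.40 (adjusted p = 0.0891) and Cldn7 of 0.46 ± 0.19 (adjusted p = 0.275), and Cldn1 ran the other way at -0.46 ± 0.22 (limma adjusted p = 0.350).

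With the inner medulla score in the fit, the MaR1 differences of several members turned negative. Cldn19 was at -0.69 ± 0.26 (limma adjusted p = 0.846), Cldn3 at -0.84 ± 0.46, Cldn10 at -0.15 ± 0.36 and Cldn7 at -0.27 ± 0.22. Cldn1 moved to -0.02 ± 0.26. Cldn23 was the only member with a difference that stayed above 0 with its interval under each of the scores fitted. None of these values passed the adjusted threshold. Cldn23 entered these fits only through the MaR1 group, so its place among the members is a description. The podocyte score, described below, was not fitted as a covariate.

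**Figure D4:**
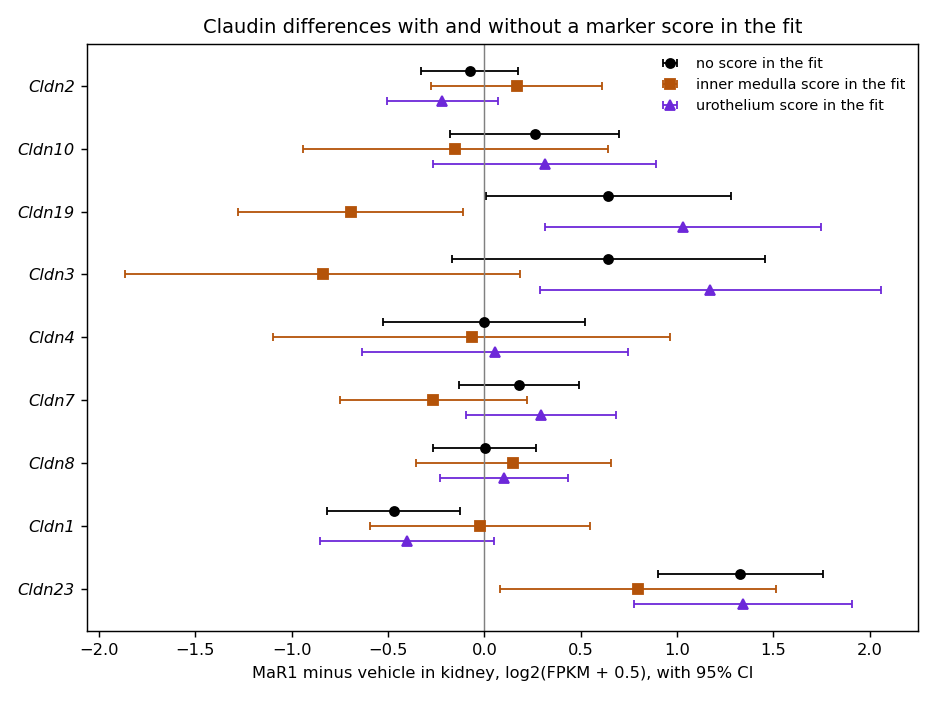
MaR1 minus vehicle difference of each claudin in kidney on the log2(FPKM + 0.5) scale, with 95% intervals, from limma fits with no score (circles), with the inner medulla score (squares) and with the urothelium score (triangles). Cldn23 is at 1.33, 0.80 and 1.34. Cldn19 and Cldn3 are both below 0 with the inner medulla score and both above 0 with the urothelium score.

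Since Cldn19, Cldn16 and Cldn10 are claudins of the thick ascending limb, 7 further marker scores were compared after the values were seen (63 relations). The 6 thick limb markers, among them Umod, the most abundant protein of urine, and Slc12a1, the sodium, potassium and chloride cotransporter blocked by loop diuretics, summed to 876 to 1963 FPKM in MaR1 kidneys and 626 to 1327 FPKM in vehicle kidneys. The score was higher with MaR1 by 0.40 (exact permutation p = 0.0476, adjusted p = 0.222) and correlated with the inner medulla score within groups at r = 0.774, so these content measures are not separate.

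For the thick limb score, 3 of 9 members were called, where 3.97% of genes were. The slopes were 1.71 ± 0.24 for Cldn19 (limma adjusted p = 0.0110), 2.05 ± 0.39 for Cldn3 (limma adjusted p = 0.0213) and 1.06 ± 0.23 for Cldn10 (limma adjusted p = 0.0323). Cldn16, not a member, had 1.496 ± 0.16 (limma adjusted p = 0.00554). Without RB039, which has the lowest thick limb score of the MaR1 kidneys, the adjusted p were 0.110 for Cldn19, 0.141 for Cldn3, 0.0609 for Cldn10 and 0.0480 for Cldn16. The call of Cldn10 was also lost without RB031, RB032, RB033, RB034, RB035, RB036 or RB038, and that of Cldn3 without RB031. Cldn23 had a slope of 0.66 ± 0.34 and was not called (limma adjusted p = 0.357).

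The correlations gave the same order. Within groups, Pearson's r with the thick limb score was 0.921 for Cldn19 (exact permutation p = 0.000833, adjusted p = 0.0190 over 63 relations), 0.864 for Cldn3 (adjusted p = 0.0190) and 0.847 for Cldn10 (adjusted p = 0.0175). Spearman's rho was 0.879, 0.818 and 0.891, with adjusted permutation p of 0.0561, 0.0561 and 0.0284. Without RB037 and RB039, r was 0.818, 0.800 and 0.964. For Cldn23 it was 0.556 (exact permutation adjusted p = 0.300).

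With the thick limb score in the fit, the MaR1 differences were -0.05 ± 0.16 for Cldn19, -0.18 ± 0.25 for Cldn3, -0.17 ± 0.15 for Cldn10 and 0.03 ± 0.10 for Cldn16. Without the score they were 0.64, 0.64, 0.26 and 0.63, and none of these values was called with or without it. The gene whose profile was closest to Cldn19 among named genes was Sim2 (r = 0.992 over 10 kidneys, group means removed), followed by Slc12a1 (r = 0.992), both picked after their values were seen.

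**Figure D5:**
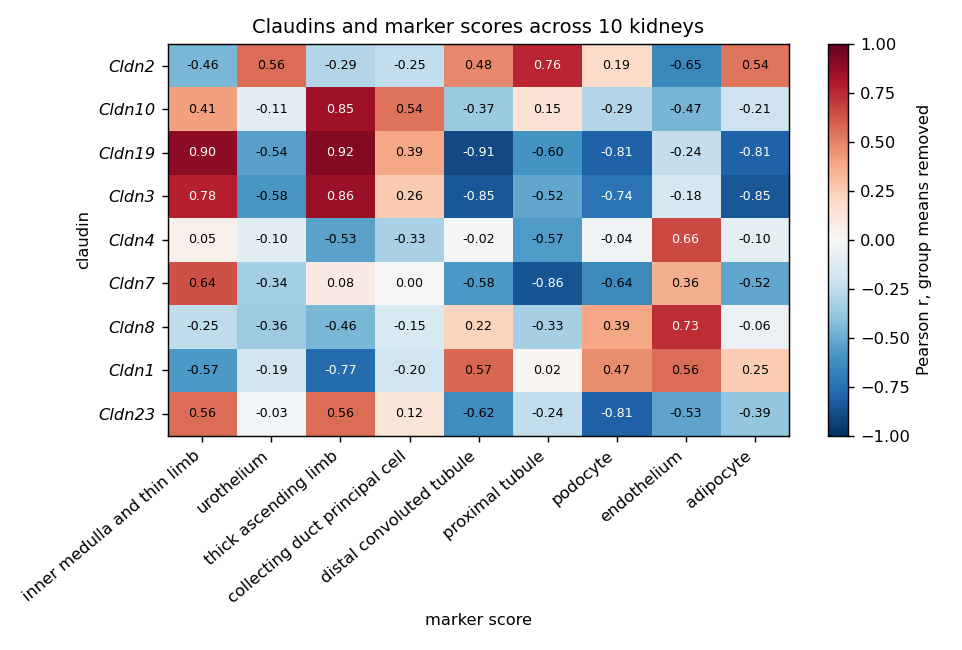
Pearson's r between each claudin (rows) and each of 9 marker scores (columns) over 10 kidneys, with group means removed; red is positive and blue negative, and each r is printed in its cell. Cldn19, Cldn3 and Cldn10 are above 0.8 with the thick ascending limb, and Cldn7 is at -0.86 with the proximal tubule. Cldn23 is near 0 with urothelium and at -0.81 with podocytes, where Cldn19 is also at -0.81.

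Among the added scores, Cldn23 passed the adjusted threshold by Pearson's r for the podocyte score only, and the relation was inverse. Pearson's r was -0.811 (exact permutation p = 0.00549, adjusted p = 0.0494 over 63 relations), rho was -0.818 (adjusted p = 0.0561), and r was -0.852 without RB032 and RB039. The podocyte score itself ran opposite to the inner medulla score (r = -0.827), so these measures are not separate. An inverse relation with podocytes was not particular to Cldn23. For Cldn3, r was -0.736 (exact permutation adjusted p = 0.0530) and rho -0.903 (adjusted p = 0.0284). For Cldn19, r was -0.808 (exact permutation adjusted p = 0.0538) and rho -0.867 (adjusted p = 0.0561). Without RB032 and RB039, r was -0.539 for Cldn3 and -0.715 for Cldn19. Cldn7 was inversely related to the proximal tubule score (r = -0.862, exact permutation adjusted p = 0.0263; rho -0.830, adjusted p = 0.0561; r = -0.837 without RB037 and RB039). The other relations of the 63 that passed by r were Cldn19 with the distal convoluted tubule score and Cldn4 with the proximal tubule score. The first had r = -0.905 (exact permutation adjusted p = 0.0464), rho -0.830 (adjusted p = 0.0561) and r = -0.890 without RB038 and RB039. The second had r = -0.570 (exact permutation adjusted p = 0.0467), rho -0.661 (adjusted p = 0.0891) and r = -0.808 without RB037 and RB039. Cldn23 had a rho of -0.818 with the distal convoluted tubule score as well (exact permutation adjusted p = 0.0561), where r was -0.619 (adjusted p = 0.203).

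Upstream sequence is shown for the members called for the thick limb score. Of the 10 listed symbols, 7 had an entry in the RefSeq promoter table (build GRCr8, not the build of the file coordinates). The 250 bases before the annotated start are given on the gene's own strand, for Cldn19 at chr5:138148325-138148574 (plus), Cldn3 at chr12:27346548-27346797 (minus) and Cldn10 at chr15:102269608-102269857 (plus). Capitals mark matches to the motifs described next.
Cldn19: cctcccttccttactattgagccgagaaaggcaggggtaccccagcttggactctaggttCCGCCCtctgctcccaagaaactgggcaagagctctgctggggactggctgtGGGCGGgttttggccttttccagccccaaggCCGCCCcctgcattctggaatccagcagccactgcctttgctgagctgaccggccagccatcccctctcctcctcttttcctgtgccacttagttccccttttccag
Cldn3: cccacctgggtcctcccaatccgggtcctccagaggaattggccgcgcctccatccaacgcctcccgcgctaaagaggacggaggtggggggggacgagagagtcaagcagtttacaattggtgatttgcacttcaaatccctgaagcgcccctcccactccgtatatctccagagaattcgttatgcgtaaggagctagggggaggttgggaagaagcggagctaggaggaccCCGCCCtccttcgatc
Cldn10: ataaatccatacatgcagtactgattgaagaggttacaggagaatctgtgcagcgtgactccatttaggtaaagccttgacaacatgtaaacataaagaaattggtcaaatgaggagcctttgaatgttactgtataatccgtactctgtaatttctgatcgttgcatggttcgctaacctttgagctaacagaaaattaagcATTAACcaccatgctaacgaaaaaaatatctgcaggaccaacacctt

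The 5 motifs searched on both strands were GGGCGG, the core of the GC box bound by Sp1 factors, GTTAAT, a site of HNF1 factors, TATAAA, the TATA box, AAGGTCA, a site of nuclear receptors, and AACCGGTT, the grainyhead site. GGGCGG occurred 3 times before Cldn19, from bases -190, -138 and -107, and once before Cldn3, at -16, against 30.5% of 33469 promoter windows of the same length with at least 1 match. Cldn10 had none and instead held GTTAAT at -47, found in 6.45% of windows. The Cldn10 isoform to which this start belongs is not named. The other motifs, found in 12.9%, 3.99% and 0.146% of windows, were not matched in these 3. The GC content was 60.0% for Cldn19, 59.2% for Cldn3 and 38.0% for Cldn10, with a median of 51.2% over all windows. No motif was common to the 3 windows, and a match is a description of the letters only.

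The genes whose profile over the 10 kidneys was most like that of Cldn23, group means removed, were less similar than the nearest to Cldn19. They were Kctd15 (r = 0.907), Tom1l1 (r = 0.884), Dnajc5 (r = 0.864), Gfpt1 (r = 0.860), Nf2 (r = 0.858) and Bbs9 (r = 0.853), out of 12446 genes ranked. Kctd15 averaged 6.33 ± 0.588 FPKM in MaR1 kidneys and 6.47 ± 0.572 FPKM in vehicle kidneys, so it shared the variation within groups and not the distance between them.

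Tight junctions also need scaffolds, adhesion molecules and tricellular proteins, and claudin genes have known regulators in epithelium. Of 24 tight junction partners tested in kidney, 11 were higher and 13 lower with MaR1, and 0 were called. The median difference was -0.03. Of 9 regulators and proteases tested, 7 were higher and 2 lower, and 0 were called, with a median of 0.05. Over all genes tested, 6227 were higher and 6219 lower with MaR1, and 0 were called.

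The 4 with the smallest p were Ehf, Ildr2, Grhl2 and F11r. Ehf, an epithelial ETS-family transcription factor, averaged 8.27 ± 2.80 FPKM in MaR1 kidneys and 4.30 ± 1.12 FPKM in vehicle kidneys (difference 0.83 ± 0.25, limma adjusted p = 0.621). Grhl2, a grainyhead factor that controls junction genes in the mouse collecting duct, averaged 1.72 ± 0.438 FPKM with MaR1 and 1.20 ± 0.287 FPKM with vehicle (difference 0.38 ± 0.16, limma adjusted p = 0.716). Ildr2, an angulin of tricellular contacts, averaged 4.85 ± 1.73 FPKM with MaR1 and 6.84 ± 1.22 FPKM with vehicle (difference -0.50 ± 0.20, limma adjusted p = 0.715). F11r, the junctional adhesion molecule A, averaged 60.6 ± 7.66 FPKM with MaR1 and 69.5 ± 4.27 FPKM with vehicle (difference -0.20 ± 0.09, limma adjusted p = 0.737). All 4 pairs of groups overlapped in range. Between organs, 18 of 24 partners were called higher in kidney and 6 lower, and 8 of 8 regulators tested were called higher, where 43.6% of all genes were higher and 41.0% lower. Only 15 of these partners and 2 of these regulators averaged 1 FPKM or more in the heart, so the others entered the test through the kidney alone and had to differ, and the counts are a description.

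In the heart, limma called 0 of 12237 genes between MaR1 and vehicle (0.0%), and 563 (4.60%) had an unadjusted p below 0.05. Cldn19 was the only member with enough expression to be tested. It was at 1.95, 1.53, 1.51, 1.55 and 1.26 FPKM in the MaR1 hearts RB035 to RB039, against 2.03, 0.868, 1.53, 1.77 and 2.16 FPKM in the vehicle hearts RB030 to RB034. The groups overlapped fully, and the difference was -0.05 ± 0.18 (95% interval -0.44 to 0.34; limma adjusted p = 1.00). No claudin of the heart separated the groups, where 0.58% of genes did with MaR1 higher and 0.262% with MaR1 lower.

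Cldn23 was at the limit of detection in the heart. It had 0 fragments in 3 of 5 MaR1 hearts and 2 of 5 vehicle hearts, and 1 fragment in each of the others. A count of 0 allows up to 3 counts, or 0.0575 to 0.0701 FPKM over the 5 hearts with 0 fragments, so no difference was detectable at this depth. The difference of responses, heart minus kidney, was -1.33 ± 0.23 for Cldn23 (limma adjusted p = 0.111), which is the kidney difference with its sign turned, and 0 of 12984 genes (0.0%) were called.

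Cldn15, not a member, had the largest difference of responses among the claudins after Cldn23. It was at 2.99, 2.07, 2.00, 2.45 and 1.61 FPKM in MaR1 hearts, against 3.72, 2.49, 2.14, 3.90 and 4.89 FPKM in vehicle hearts. The ranges overlapped, with a heart difference of -0.50 ± 0.20 (limma adjusted p = 1.00). The kidney difference was 0.38 ± 0.19, and the difference of responses was -0.88 ± 0.29 (limma adjusted p = 0.714).

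The hearts high in Cldn1 were those high in nerve markers. Cldn1 was at 0.613, 0.0913, 0.202, 0.164 and 0.378 FPKM in MaR1 hearts, against 0.210, 0.677, 0.186, 0.698 and 0.921 FPKM in vehicle hearts. The 5 hearts highest in Cldn1, RB034, RB033, RB031, RB035 and RB039, were the 5 with the highest sums of 4 Schwann cell markers (13.5 to 22.5 FPKM, against at most 7.04 FPKM in the others), and 4 of them were among the 5 highest in 3 mesothelium markers. Cldn15 shared 4 of its 5 highest hearts with each of these lists and 2 with the endothelial markers. The lowest of those 5 hearts, at 2.49 FPKM of Cldn15, was close to the highest of the rest, at 2.45 FPKM. The mesothelium markers summed to 0.0609 to 15.0 FPKM in MaR1 hearts and 2.38 to 32.3 FPKM in vehicle hearts, and their part in the claudin values was not tested.

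Claudins of the kidney tubule were found at trace level in the hearts. Cldn10 was at 0.0582, 0.555, 0.142, 0.136 and 0.323 FPKM in MaR1 hearts, from 35 fragments in all, against 0.0318, 0.0308, 0.0707, 0.0949 and 0.123 FPKM in vehicle hearts, from 12 fragments. The highest 2, RB036 and RB039, were also the highest in Cldn2, at 0.194 and 0.291 FPKM. The sum of the same 6 proximal tubule genes was 5.44 to 15.9 FPKM in MaR1 hearts and 1.49 to 7.68 FPKM in vehicle hearts, and their part in the Cldn10 values was not tested. Both genes were below the level tested.

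Several claudin genes lie next to each other in the genome. As the file gives positions, Cldn3 and Cldn4 are 40.3 kb apart on chromosome 12, on opposite strands, and Cldn16 and Cldn1 are 112 kb apart on chromosome 11, also on opposite strands. Over the 10 kidneys, group means removed, r was -0.279 for Cldn3 and Cldn4 and -0.704 for Cldn16 and Cldn1. In RB030, Cldn4 was the highest and Cldn3 the second lowest of the 10 kidneys. In RB037, Cldn16 was the highest and Cldn1 the second lowest. Cldn17, a neighbour of Cldn8 at 47.1 kb, stayed below 0.6 FPKM in all kidneys.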

How the data were processed

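The authors deposited FPKM values of 30560 genes in 20 libraries. The submitters' processing notes name fastp, HISAT2 2.0.5, StringTie 1.3.3b and featureCounts 1.5.0-p3. No genome build is named in the sources used here, and positions are those of the file. Strand-specific counting is not stated, and fragments of genes that overlap on opposite strands may be shared. Multiplying FPKM by gene length recovered whole fragments (tolerance 0.01) for 100% of the 371175 nonzero values.

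Values were analysed as log2(FPKM + 0.5) with limma 3.58.1 in R 4.3.3 (variance trend, two-sided), on genes whose mean over the fitted libraries was 1 FPKM or more, with Benjamini-Hochberg adjustment over all of them and a threshold of 0.05. Each organ was fitted alone for MaR1 against vehicle. All 20 libraries were fitted together for kidney against heart and for the difference of responses. Slopes on a marker score had treatment in the fit. Correlations were computed after removing group means, with p from all 14400 permutations of rats within groups. Scores between groups were compared with all 252 splits of 10 rats. The limma fits for MaR1 against vehicle, kidney against heart and the inner medulla slope were tested on simulated data. The permutation tests and the difference of responses were not.

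Kidney and heart of the same number come from the same rat, per the labels. Their deviations from group means, over 12984 genes, correlated at -0.017 to 0.139, with 2 of 10 above 0.1; the fit with the rat as block (statmod 1.5.0) estimated a correlation of 0.0621. Replicates are separate rats, so p-values describe the spread between rats. Counting floors cover counting error only.

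The members, the 14 marker and partner lists (105 of 112 symbols matched), the tests and the alternatives were chosen with earlier results of these data known; the thick limb, podocyte and other added scores were chosen after the values were seen. All members were named, other claudin rows with a mean of at least 1 FPKM in an organ, the 4 partners or regulators of smallest p in kidney, and the 6 genes nearest to Cldn23; the 3 of smallest p in heart stand in the closing section. Values of a single marker within the inner medulla list are not reported here. Promoter sequences are from RefSeq (GRCr8). Figures were drawn with matplotlib 3.10.9.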

Additional observations from a re-analysis of the deposited data

Results flagged for a closer look

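In groups of 5, a value was examined when its gap to the nearest other value was large against the range of the group (Dixon's criterion at 95%). This was done for 39 gene groups of claudins with a mean of at least 0.5 FPKM and for 6 groups of marker scores, where chance alone gives about 1 in 20. Cldn11, the myelin claudin, was at 10.5 FPKM in the MaR1 heart RB035, and the other MaR1 hearts lay between 0.0265 and 1.03 FPKM. The same heart had the highest sum of Schwann cell markers, 22.5 FPKM. The urothelium score was -0.042 in the vehicle kidney RB034, and the other vehicle kidneys lay between -0.87 and -0.73. Cldn23 in RB034 was 1.26 FPKM, the highest of the vehicle kidneys; over the 10 kidneys its relation with the urothelium score was r = -0.029 (exact permutation p = 0.951). The part of Schwann cell content in the Cldn11 value was not tested.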

How the results depend on the processing

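Apart from single rats left out, 105 of 120 values behind the main comparisons kept their direction and their side of the threshold or stayed within 1.5 times. The count of kidney genes called for MaR1 was 6 with both organs in 1 model and the rat as replicate block and 7 without the block, with Cldn23 at 1.33 in both; the block changed no other call of a member. Leaving out rats gave 0 to 1. The count for the difference of responses was 21 with library weights, 1 without variance trend, 1 at a pseudocount of 0.1, and 0 to 3 with a rat left out (3 without RB035 or RB039). The count for kidney against heart was 7292 at a mean of at least 5 FPKM, where fewer genes are tested. Members called for the inner medulla score were 4 with library weights, 0 without filter, 0 at a pseudocount of 0.1 and 0 to 2 with a rat left out; for the thick limb score 1 without filter and 0 to 4 with a rat left out. Cldn23 against the urothelium score had slopes of 0.0010 (pseudocount 0.1), 0.0095 (quantile scaling) and -0.067 to 0.058 (rats left out), and r of 0.0035 (pseudocount 0.1) and -0.225 to 0.127; against the inner medulla score r was 0.448 to 0.608. The urothelium score difference was 2.02 at a pseudocount of 0.1 and 0.94 to 1.77 with a rat left out, with an exact permutation p of 0.0159 without RB035 and 0.0238 without RB037. The causes of these shifts were not tested.

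Among single MaR1 differences in kidney, those that turned sign were Cldn2 at 0.17 with the inner medulla and 0.0015 with the thick limb score and -0.13 to 0.0018 with a rat left out, Cldn3 at -0.84 and -0.18 with these scores, Cldn10 at -0.15 and -0.17, Cldn19 at -0.69 and -0.047, and Cldn7 at -0.27 with the inner medulla score. Cldn4 was at 0.057 with the urothelium and 0.32 with the thick limb score, 0.24 without RB030 and RB039, and -0.14 to 0.24 with a rat left out. Cldn8 was at -0.00057 with quantile scaling, -0.0037 with library weights and -0.090 to 0.058 with a rat left out. Cldn19 in heart was at -0.21 to 0.034 with a rat left out. Cldn4 against the inner medulla score had slopes of -0.076 to 0.19, and r of -0.024 with the first principal component and -0.0451 to 0.169. Cldn23 in kidney against heart could be fitted in 6 of 10 cases with a rat left out, since its mean fell below the filter in the others. A count test of the fragments was not run; limma voom used the authors' own library sizes. The score of the thick limb, the podocyte score, and leaving out RB030 and RB039 were chosen after seeing the data. Low depth limits Cldn23, Cldn3, Cldn7, Cldn8, Cldn4 and Cldn10 in heart, where no library had more than 16 fragments of any of them. Counts per library were also few for Cldn2 and Cldn1, at most 29 and 68.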

Other observations

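The tight junction partners of smallest p in the heart were Magi3, a junction scaffold (MaR1 minus vehicle -0.15), Patj, a polarity scaffold (-0.18), and Cxadr, a junctional adhesion protein (-0.21). None of 15 partners and 2 regulators tested there was called by limma. Of these 17, 0 had an unadjusted limma p below 0.05, where 4.60% of all genes did. The claudin of vessels and endothelial markers overlapped between groups: the row annotated claudin-5 averaged 15.8 ± 1.66 FPKM in MaR1 hearts and 17.2 ± 1.97 FPKM in vehicle hearts (SD, n = 5 each; limma adjusted p = 1.00), and 8 endothelial markers summed to 289 to 382 FPKM in MaR1 hearts and 286 to 366 FPKM in vehicle hearts. Cldn22 ran from 0.401 to 1.49 FPKM in MaR1 hearts and from 0.579 to 1.09 FPKM in vehicle hearts, close to its kidney levels of 0.448 to 1.01 FPKM with MaR1 and 0.732 to 1.14 FPKM with vehicle. Cldn11 ran from 0.594 to 1.04 FPKM in MaR1 kidneys and from 0.438 to 0.606 FPKM in vehicle kidneys.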
